A study of Mus musculus with 15 samples.

Results

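The epidermal differentiation complex is a stretch of mouse chromosome 3 packed with genes for proteins of the cornified cell, the dead flattened keratinocyte of the skin surface. Its genes were taken from a table of whole-skin RNA levels as the rows on chromosome 3 whose names begin with Lce or Sprr, together with 14 named genes of the complex. This gave 52 of the 54532 genes in the table, lying between 90726906 and 93471980 of mm10. They comprise 14 Lce1, 6 Lce3, 1 other Lce (Lce6a), 2 Sprr1, 13 Sprr2 and 2 other Sprr genes (Sprr3 and Sprr4). The remaining genes are 7 of the S100-fused type (Flg, Flg2, Hrnr, Rptn, Tchh, Tchhl1 and Crnn) and 7 standing alone (Lor, Ivl, Pglyrp3, Pglyrp4, Kprp, Crct1 and Smcp). The libraries form 4 groups of 3, all from mouse skin: Trpv3-knockout skin given MC903 for 7 days (KO MC903), wild type skin given the same (WT MC903), Trpv3-knockout skin without treatment (KO untreated) and wild type skin without treatment (WT untreated). MC903, also called calcipotriol, acts on the vitamin D receptor and is used on mouse skin to model atopic dermatitis. TRPV3 is an ion channel that lets calcium into keratinocytes and opens with warmth. The series concerns conditional knockouts, and the labels give neither the cells that lose the gene nor a vehicle for the untreated skin.

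As keratinocytes leave the basal layer, transglutaminases cross-link loricrin, involucrin, the small proline-rich proteins (Sprr) and the late cornified envelope proteins (Lce) under the cell membrane into the cornified envelope. The S100-fused proteins join a calcium-binding end to long repeats. Filaggrin among them binds and bundles keratin inside the same cells and is later broken down into the small molecules that keep the surface moist. Lce1 genes are known as genes of resting epidermis, whereas Sprr1, Sprr2 and, in human skin, LCE3 genes are known to be switched on by injury and inflammation.

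The libraries held 16869716 to 18485698 reads over all genes. The complex took 0.869% to 1.269% of them in KO MC903, 1.8% to 1.955% in WT MC903, 0.523% to 0.624% in KO untreated and 0.225% to 0.372% in WT untreated skin. Trpv3 itself, the targeted gene, read 6.82, 6.78 and 4.73 FPKM in KO MC903 and 16.1, 17 and 19 FPKM in WT MC903 skin. Untreated it read 3.17, 3.64 and 2.62 FPKM in KO untreated and 2.06, 2.71 and 1.13 FPKM in WT untreated skin. Without treatment its RNA was therefore not below the wild type level, and the genotypes are given here as labelled. FPKM scales reads to gene length and to the size of the library, so levels of different genes can be set beside each other as far as their gene models hold. KO MC903 replicate 3 was the lowest of its group in 47 of the 51 members with a value above 0 there, KO untreated replicate 3 in 37 of 49 and WT untreated replicate 3 in 38 of 48. Whether a group's 3 libraries are 3 animals is not stated, and the p-values therefore cover library-to-library spread that could be technical. In whole skin, fewer cells of a type and less RNA per cell cannot be told apart.

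The Sprr2 and Lce3 families hold near-identical copies, and these decide how far single members can be read. Coding sequences of Sprr2a1 and Sprr2a2 were the same base for base in every position, and Sprr2a3 differed from them little (98.8%). Of the stretches of 100 bases in the exons of Sprr2a1 and Sprr2a2, 92.5% and 92.8% also occurred in another gene, so the split of reads between these copies is uncertain and their sum is the safer value. The gene models of the 3 Sprr2a copies are also long, 2883 to 3003 exon bases against 681 for Sprr2d, which lowers their FPKM beside the other Sprr2 genes. For Sprr2a3 this share was 36.2%, for Lce3f, Lce3e, Lce3d and Lce3c it lay between 24.1% and 43%, for every other Sprr2 and Lce3 gene it was at most 1.16%, and for no Lce1 gene did it exceed 4.9%. The first 90 coding bases of 6 Sprr2 genes show the copies against the most abundant member, Sprr2d (chr3:92339140-92340873, plus strand, mm10), with capitals where a gene differs from Sprr2d:
Sprr2d: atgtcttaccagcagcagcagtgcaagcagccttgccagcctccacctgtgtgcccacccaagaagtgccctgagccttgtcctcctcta
Sprr2a1: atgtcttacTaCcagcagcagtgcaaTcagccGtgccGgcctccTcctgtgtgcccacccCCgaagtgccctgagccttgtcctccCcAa
Sprr2a2: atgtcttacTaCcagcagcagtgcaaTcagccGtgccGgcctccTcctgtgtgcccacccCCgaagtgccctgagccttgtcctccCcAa
Sprr2a3: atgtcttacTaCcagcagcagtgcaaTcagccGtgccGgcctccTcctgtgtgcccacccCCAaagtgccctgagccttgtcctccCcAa
Sprr2b: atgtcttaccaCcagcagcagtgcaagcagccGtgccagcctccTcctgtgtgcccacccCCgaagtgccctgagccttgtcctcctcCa
Sprr2h: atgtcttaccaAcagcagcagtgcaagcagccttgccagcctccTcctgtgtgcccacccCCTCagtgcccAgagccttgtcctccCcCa
The 3 Sprr2a genes carried 10, 10 and 11 differences from Sprr2d in this stretch, Sprr2b 6 and Sprr2h 9. Over whole families the median coding identity was 66.8% in Sprr2 (66 pairs) and 97.6% in Lce3 (15 pairs). The Lce1 genes were less alike than the Lce3 genes (78 pairs without Lce1m, 74.6% to 95.7%). Lce1m stood apart from all other Lce1 genes with 49.3% to 59.1%.

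Added up, the complex rose with MC903 in both genotypes, more in wild type, and by the largest ratios in the Sprr2, Lce3 and Sprr1 genes. By amount the order differed in WT skin, where the mean Lce1 sum went from 1231 to 3868 FPKM and the mean Lce3 sum from 4.38 to 1432. In KO skin the mean Lce1 sum went from 2358 to 2804 FPKM and the mean Lce3 sum from 17.1 to 1049, so there Lce3 gained more. For the complex as a whole the values per library follow. The summed FPKM of the complex was 10945, 10321 and 6744 in KO MC903 and 15442, 15198 and 15661 in WT MC903 skin. Untreated it was 4422, 4621 and 4112 in KO and 2410, 1936 and 1688 in WT skin. No group overlapped another, and KO skin lay below wild type after MC903 and above it without treatment. The Sprr2 sum stood at 1828 ± 528 FPKM in KO MC903, 3733 ± 229 in WT MC903, 24.4 ± 8.85 in KO untreated and 2.91 ± 2.67 in WT untreated skin (SD, n = 3 each). The Lce1 sum, already the largest family sum in untreated skin, stood at 2804 ± 740, 3868 ± 334, 2358 ± 115 and 1231 ± 239 FPKM in the same order. MC903 thus multiplied the mean Sprr2 sum by 75.1 in KO and 1280 in WT skin, the Lce3 sum by 61.3 and 327, the Sprr1 sum by 10.4 and 77.8, the S100-fused sum by 6.57 and 19.2, and the Lce1 sum by 1.19 and 3.14. Without WT untreated replicate 2 the WT Sprr2 ratio was 2610. These sums are given without a test. The mean KO sum of each of these 5 families lay below the wild type mean after MC903 and above it untreated. This held whichever scaling between libraries was used (as deposited, TPM or total reads). Single libraries of KO MC903 and WT MC903 skin overlapped in Lce3 on every scale and in Lce1 on the TPM scale. In the S100-fused genes they overlapped on the TPM and total-read scales.

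**Figure D1:**
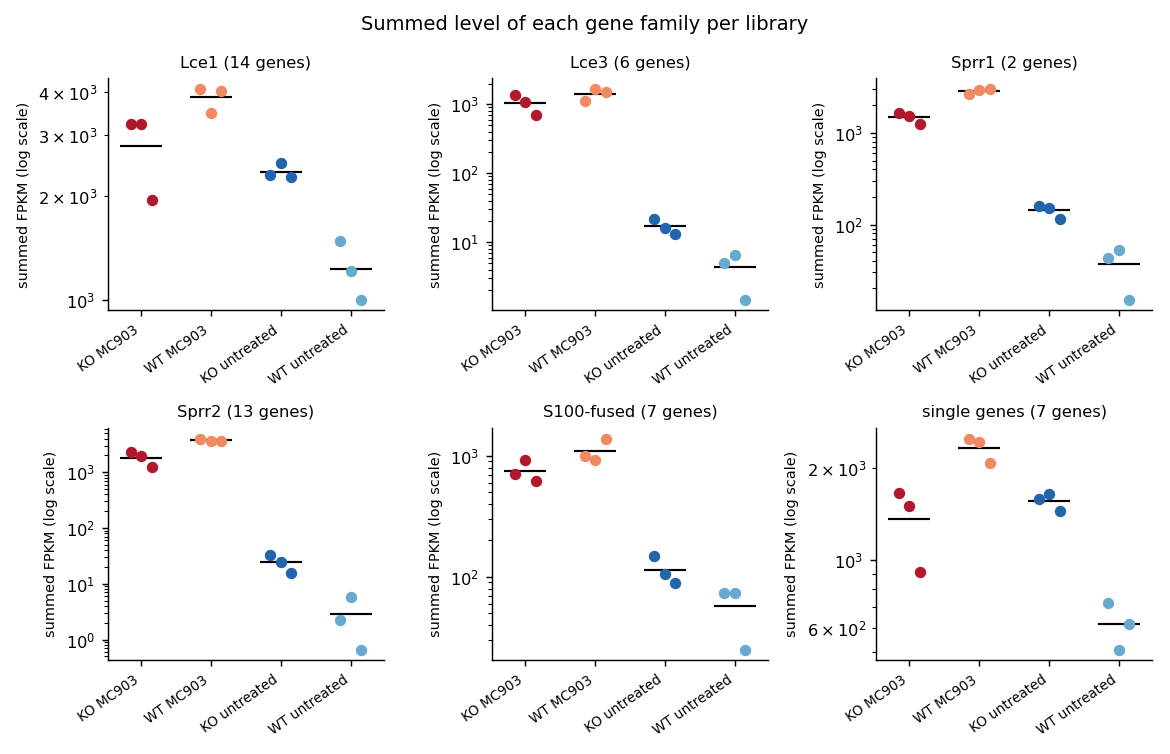
Summed FPKM of 6 groups of genes (log axis, a different range in each panel) in each library of the 4 groups; points are libraries and lines are group means. The Sprr2 sum lies between 1242 and 3996 FPKM in the MC903 libraries and between 0.66 and 33.2 in the untreated ones, whereas the Lce1 sum spans only 1002 to 4088 over all 12.

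Of the 52 genes 50 passed the filter on low values, an FPKM of at least 0.5 in at least 3 libraries, and 8 of these passed only with the help of MC903 libraries. Sprr3, known from oral and forestomach epithelium, read 0.101 FPKM in WT MC903 replicate 2 and was at 0 in the other 11 libraries, and the pseudogene Sprr2c-ps read 0.18 FPKM in KO MC903 replicate 3 only. A gene was called when its limma p-value, adjusted by the Benjamini-Hochberg method over all 17646 genes tested, was below 0.05, and log2 fold changes are of FPKM + 0.5 and given ± standard error. In KO skin MC903 raised 31 of the 50 and lowered 6, where 25% of all genes tested rose and 23% fell. In WT skin it raised 44 and lowered 2, where 32.6% of all genes rose and 30.3% fell. Without the 8 members that passed only through MC903 libraries, a choice that favours a rise, 24 of 42 rose and 6 fell in KO skin, and 36 rose and 2 fell in WT skin. The median log2 fold change of the 50 was 1.03 in KO and 2.98 in WT skin, beside 0 and 0.02 for all genes tested. Markers of other cells moved in the same comparisons. In KO skin 6 of 7 immune cell markers rose, and 5 of 5 skeletal muscle and 3 of 4 adipocyte markers fell. Of 9 hair shaft markers 8 fell and 1 rose there, and 4 of 5 sebaceous gland markers fell. Of 5 fibroblast markers 1 rose and 2 fell. In WT skin 5 of 7 immune cell markers rose and 1 fell, and 5 of 5 fibroblast and 4 of 4 adipocyte markers fell. There 1 of 9 hair shaft markers rose and none fell, and 3 of 5 sebaceous gland markers fell. The immune list includes S100a8 and S100a9, which stressed keratinocytes also make. The part of all these markers in the members' changes was not tested.

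**Figure D2:**
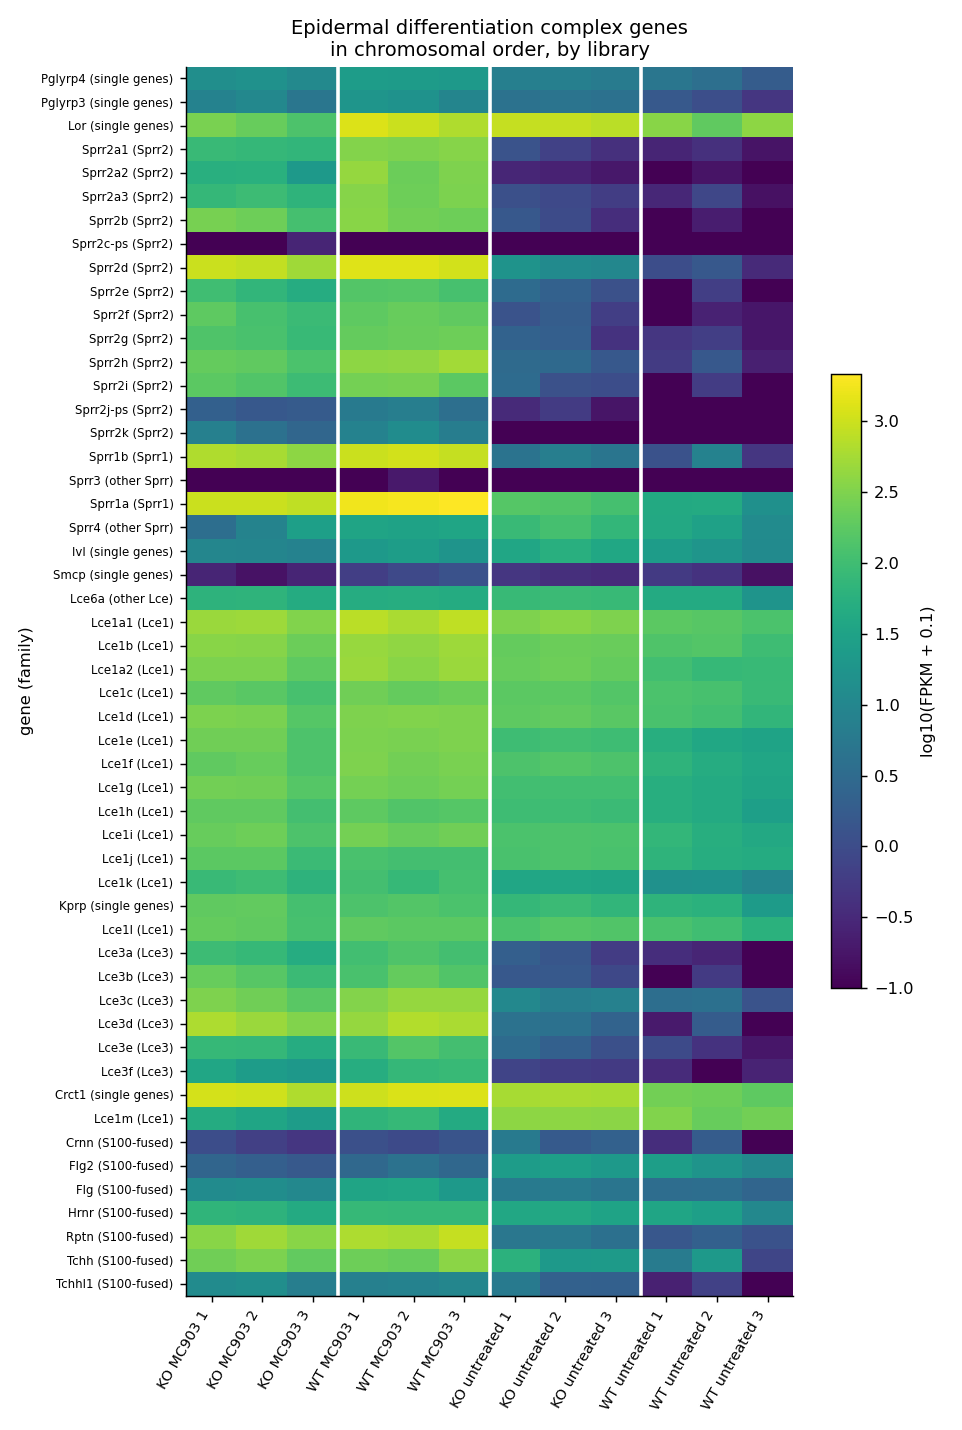
Level of each of the 52 members (rows, in chromosomal order with the family in brackets) in each of the 12 libraries (columns), as log10(FPKM + 0.1). The Sprr2 block and the Lce3 block change from low levels in untreated libraries to high ones after MC903, the Lce1 block is bright throughout, and Lce1m and Flg2 run the other way.

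The small proline-rich genes, whose short proteins act as cross-bridges of the envelope, gave the largest rises. All 12 Sprr2 genes tested and both Sprr1 genes rose in each genotype. Of the 12, 5 passed the filter only through MC903 libraries (Sprr2a1, Sprr2a2, Sprr2b, Sprr2j-ps and Sprr2k), and the other 7 rose in each genotype too. Sprr2d read 979, 863 and 524 FPKM in KO MC903 skin, against 16.4, 11.5 and 9.93 FPKM in KO untreated skin. In wild type it read 1295, 1314 and 1090 FPKM after MC903, against 0.959, 1.46 and 0.23 FPKM without treatment. The treated and untreated libraries are far apart in both genotypes, and the log2 fold changes were 5.89 ± 0.34 in KO (limma adjusted p = 4.3e-07) and 9.91 ± 0.34 in WT skin (limma adjusted p = 4.7e-09). In this fit Sprr2b rose most in KO skin (7.27 ± 0.36, limma adjusted p = 1.3e-07), with 278, 235 and 114 FPKM after MC903, against 1.44, 0.869 and 0.274 FPKM untreated. In WT skin Sprr2b read 358, 254 and 239 FPKM after MC903, against 0, 0.126 and 0 FPKM untreated (9.02 ± 0.36, limma adjusted p = 1.3e-08). Sprr2h, second to Sprr2d in its mean over all 12 libraries but behind Sprr2b in KO MC903 skin, read 199, 185 and 129 FPKM in KO MC903 skin, against 2.99, 2.93 and 1.43 FPKM in KO untreated skin. In WT skin it read 392, 404 and 547 FPKM after MC903, against 0.468, 1.45 and 0.139 FPKM untreated. It rose in both (5.89 ± 0.37 and 8.7 ± 0.37, limma adjusted p = 7.9e-07 and 1.8e-08). Sprr2k was at 0 in all 6 untreated libraries. It read 7.53, 4.08 and 2.63 FPKM in KO MC903 and 8.35, 12.7 and 6.83 FPKM in WT MC903 skin. It averaged 4.75 FPKM in KO MC903 and 9.29 FPKM in WT MC903 skin, which is at least 19.2-fold and 38.9-fold higher than the level that 3 reads per library would give. Sprr2j-ps, named as a pseudogene but annotated as protein-coding, was also at 0 in WT untreated skin. With Sprr2k, and Sprr2j-ps in WT skin, set to such bounds, the family's median log2 fold change was 5.96 in KO and 8.55 in WT skin, as in the fit.

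Sprr1a and Sprr1b, markers of stressed and cornifying keratinocytes, differed in how far they were on before treatment. Sprr1a read 977, 965 and 840 FPKM in KO MC903 skin, against 155, 144 and 111 FPKM in KO untreated skin. Its WT values were 1702, 1904 and 2142 FPKM in WT MC903 skin, against 42.3, 44.7 and 14.6 FPKM in WT untreated skin. Sprr1b read 665, 587 and 400 FPKM in KO MC903 skin, against 4.38, 7.07 and 4.66 FPKM in KO untreated skin. The WT values of Sprr1b were 951, 1083 and 886 FPKM in WT MC903 skin, against 1.15, 8.36 and 0.378 FPKM in WT untreated skin. Sprr1b thus made up 37.3% and 33.7% of the Sprr1 sum in KO MC903 and WT MC903 skin, against 3.77% and 8.87% in KO untreated and WT untreated skin, and the WT untreated share was 2.62% without replicate 2. Both rose in KO (2.77 ± 0.34 for Sprr1a and 6.55 ± 0.63 for Sprr1b) and in WT skin (5.95 ± 0.34 and 8.7 ± 0.63; the highest of these 4 limma adjusted p-values was 7.8e-05). Sprr4, the remaining Sprr gene with a measurable level, went the other way in KO skin: it read 3.58, 8.62 and 27.4 FPKM in KO MC903, against 85.3, 112 and 74.4 FPKM in KO untreated skin (-3.15 ± 0.59, limma adjusted p = 0.0012). In WT MC903 skin it read 33.6, 31.1 and 34.8 FPKM, against 41.3, 30.3 and 12.2 FPKM untreated, with overlapping libraries and no call (0.41 ± 0.59, limma adjusted p = 0.57).

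The Lce genes, which encode small cysteine-rich envelope proteins laid down late, split by family. All 6 Lce3 genes, 2 of which (Lce3a and Lce3f) passed the filter only through MC903 libraries, rose in both genotypes, by log2 fold changes of 4.7 to 6.91 in KO and 6.76 to 9.34 in WT skin. Lce3d read 640, 482 and 329 FPKM in KO MC903 skin, against 4.17, 3.95 and 2.3 FPKM in KO untreated skin (6.91 ± 0.48, limma adjusted p = 1.6e-06). In WT skin Lce3d read 438, 669 and 615 FPKM after MC903, against 0.102, 1.72 and 0 FPKM untreated (9.34 ± 0.48, limma adjusted p = 6.4e-08). Lce3c was the most abundant Lce3 gene before treatment, with 10.5, 6.93 and 8.05 FPKM in KO and 3.63, 3.94 and 1.2 FPKM in WT untreated skin. After MC903 it read 312, 243 and 170 FPKM in KO and 331, 438 and 437 FPKM in WT skin, and Lce3d had passed it in mean level in both genotypes. The share of Lce3d in the Lce3 sum was 46.1% in KO MC903 and 40.1% in WT MC903 skin, against 20.3% in KO untreated and 13.8% in WT untreated skin, with the limit that the copies share sequence.

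The Lce1 genes moved far less. In KO skin 4 of 14 rose (Lce1e, Lce1g, Lce1h and Lce1k) and Lce1m fell, and in WT skin 13 rose and Lce1m fell. The KO share is near the 25% of all genes that rose, and the call of Lce1h held in 16 of 23 alternative settings. Lce1a1, the most abundant Lce1 gene after MC903 but behind Lce1m in untreated skin, read 483, 504 and 320 FPKM in KO MC903 skin, against 317, 358 and 313 FPKM in KO untreated skin, where the libraries of both groups overlap and no call was made (0.38 ± 0.19, limma adjusted p = 0.12). In WT skin it read 776, 610 and 816 FPKM after MC903, against 173, 159 and 129 FPKM untreated (2.25 ± 0.19, limma adjusted p = 1.7e-06). Lce1b, next to Lce1a1 in its mean over all libraries, read 365, 346 and 224 FPKM in KO MC903 skin, against 200, 227 and 220 FPKM in KO untreated skin (0.5 ± 0.2, limma adjusted p = 0.059), and in WT skin it rose to 461, 402 and 489 FPKM, against 138, 149 and 96.9 FPKM untreated (1.83 ± 0.2, limma adjusted p = 1.4e-05). Lce6a read 62, 66.7 and 46.3 FPKM in KO MC903 skin, against 81.9, 87.8 and 83.9 FPKM in KO untreated skin. In WT MC903 skin Lce6a read 47.5, 50.4 and 45.2 FPKM, against 44.1, 44.5 and 17.3 FPKM in WT untreated skin. Lce6a, an Lce gene of its own kind at the edge of the Lce1 block, passed in neither genotype (-0.55 ± 0.29 in KO and 0.55 ± 0.29 in WT skin, limma adjusted p = 0.14 and 0.12).

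Lce1m was the exception within its family. It read 45.3, 35.6 and 24.4 FPKM in KO MC903 skin, against 388, 386 and 377 FPKM in KO untreated skin (-3.47 ± 0.25, limma adjusted p = 2e-06). In WT skin Lce1m read 67.8, 80.6 and 44.6 FPKM after MC903, against 322, 214 and 253 FPKM untreated (-2.05 ± 0.25, limma adjusted p = 2.9e-05). It fell to 1.25% of the Lce1 sum in KO MC903 and 1.66% in WT MC903 skin, against 16.3% in KO untreated and 21.4% in WT untreated skin. Lce1m (chr3:93017810-93019060, minus strand) is also the gene whose coding sequence is least like the other Lce1 genes, and it lies beyond the Lce3 block, next to Crct1, apart from the rest of its family. Its neighbour Crct1, a cysteine-rich gene of the same complex, read 1142, 1060 and 642 FPKM in KO MC903 and 1020, 1241 and 1250 FPKM in WT MC903 skin, above all untreated libraries. Crct1 rose in both genotypes, with the KO call held in 17 of 23 alternative settings (0.67 ± 0.21 in KO and 2.38 ± 0.21 in WT skin, limma adjusted p = 0.022 and 2.7e-06).

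**Figure D3:**
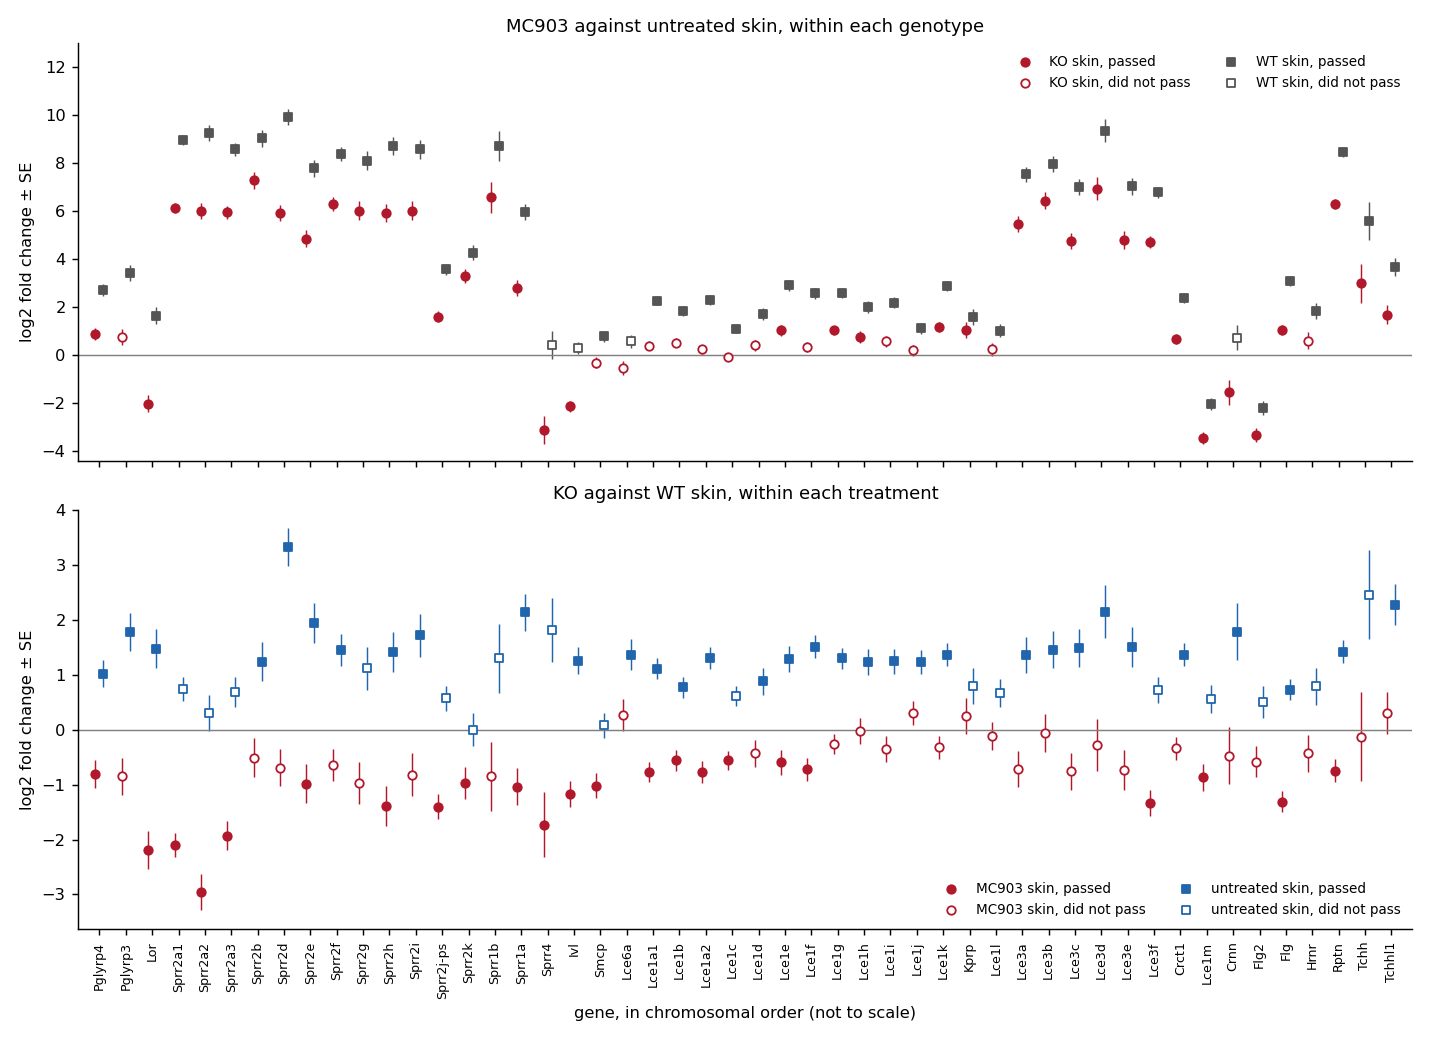
Log2 fold change of FPKM + 0.5 with its standard error for the 50 members tested, in chromosomal order; above, MC903 against untreated in KO skin (red) and WT skin (grey), below, KO against WT in MC903 skin (red) and untreated skin (blue), with filled symbols for calls. Above, the Sprr2 and Lce3 blocks stand high and Lce1m and Flg2 lie below 0 in both genotypes; below, calls in MC903 skin are all negative (lowest -2.95, Sprr2a2) and calls in untreated skin all positive (highest 3.33, Sprr2d).

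The S100-fused genes showed the widest spread. Rptn, which encodes repetin, a precursor of the envelope, read 370, 522 and 363 FPKM in KO MC903 skin, against 5.12, 5.46 and 3.85 FPKM in KO untreated skin (6.29 ± 0.21, limma adjusted p = 1.2e-08). In WT skin Rptn read 639, 588 and 891 FPKM after MC903, against 1.39, 2 and 1.12 FPKM untreated (8.46 ± 0.21, limma adjusted p = 7e-10). Flg2, a filaggrin relative, fell instead: it read 2.52, 1.96 and 1.53 FPKM in KO MC903 skin, against 24.6, 27.4 and 21.5 FPKM in KO untreated skin (-3.33 ± 0.29, limma adjusted p = 6.9e-06). In WT skin it read 2.84, 4.27 and 2.68 FPKM after MC903, against 26.7, 17.3 and 10.4 FPKM untreated (-2.24 ± 0.29, limma adjusted p = 4.4e-05). Rptn and Flg2, both called in both genotypes with no overlap of libraries, moved in opposite directions. Rptn made up 55.8% and Flg2 0.267% of the S100-fused sum in KO MC903 skin, against 4.21% and 21.4% in KO untreated skin. The gene models of Flg2 and Flg are long, 20803 and 18829 exon bases against 4146 for Rptn, and FPKM divides by this length. Repeats within a gene were not examined, and their part in these levels was not tested.

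Flg, the filaggrin gene, rose in both genotypes but stayed at low levels per length, over a gene model of 18829 exon bases. It read 12.2, 13.2 and 10.3 FPKM in KO MC903 skin, against 5.86, 6.17 and 4.72 FPKM in KO untreated skin (1.03 ± 0.19, limma adjusted p = 0.0012). Its WT values were 33.8, 36.2 and 22.2 FPKM in WT MC903 skin, against 3.47, 3.62 and 2.46 FPKM in WT untreated skin (3.07 ± 0.19, limma adjusted p = 2.2e-07). Hrnr, hornerin, read 68.1, 62.6 and 44.4 FPKM in KO MC903 skin, against 40.1, 41.3 and 32.9 FPKM in KO untreated skin, without a call (0.59 ± 0.34, limma adjusted p = 0.18). In WT skin Hrnr read 78.1, 77.6 and 77.4 FPKM after MC903, against 34.8, 27.8 and 10.4 FPKM untreated, and it rose (1.82 ± 0.34, limma adjusted p = 0.00074). Crnn, cornulin, known from oral and oesophageal epithelium, was low everywhere, with 0.946, 0.564 and 0.377 FPKM in KO MC903 skin, against 5.93, 1.57 and 2.13 FPKM in KO untreated skin. It fell there, a call held in 18 of 23 alternative settings (-1.57 ± 0.52, limma adjusted p = 0.027) and was not called in WT skin (0.7 ± 0.52, limma adjusted p = 0.26).

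Tchh, trichohyalin, is known as a protein of the inner root sheath of the hair follicle, and its relative Tchhl1 lies beside it. Tchh read 243, 305 and 195 FPKM in KO MC903 skin, against 60.9, 20.8 and 22.4 FPKM in KO untreated skin (2.97 ± 0.81, limma adjusted p = 0.011). Its WT values were 237, 212 and 380 FPKM in WT MC903 skin, against 6.24, 21.2 and 0.718 FPKM in WT untreated skin (5.57 ± 0.81, limma adjusted p = 0.00011). The MC903 libraries lay above the untreated ones in both genotypes, and the untreated libraries varied widely. Of 10 inner root sheath markers tested, all 7 keratins fell in KO skin (-2.52 to -4.27) and none was called in WT skin, Gata3 fell in KO skin, and Tgm3, which also belongs to the cornified envelope, rose in both. The 8 root sheath keratins together read 31.9, 1.89 and 5.78 FPKM in KO MC903, 3.67, 7.38 and 36.1 in WT MC903, 275, 114 and 124 in KO untreated and 44.4, 153 and 0.732 in WT untreated skin. Tchh and these keratins therefore moved in opposite directions in KO skin, and Krt71 was at 0 in WT untreated replicate 3. Their part in the Tchh result was not tested. Tchhl1 read 12, 13.5 and 7.11 FPKM in KO MC903 skin, against 5.8, 2.11 and 2 FPKM in KO untreated skin. In WT MC903 skin Tchhl1 read 7.73, 8.16 and 9.57 FPKM, against 0.146, 0.6 and 0 FPKM in WT untreated skin. Tchhl1 thus rose as well, without overlap (1.67 ± 0.38 in KO and 3.66 ± 0.38 in WT skin, limma adjusted p = 0.0038 and 8.7e-06).

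Among the genes standing alone, loricrin, the main protein of the envelope by mass, and involucrin, its early scaffold, did not follow the rest in KO skin. Lor read 293, 212 and 132 FPKM in KO MC903 skin, against 890, 887 and 749 FPKM in KO untreated skin (-2.05 ± 0.35, limma adjusted p = 0.00068). In WT skin Lor read 1272, 968 and 641 FPKM after MC903, against 367, 187 and 396 FPKM untreated (1.62 ± 0.35, limma adjusted p = 0.0018). Lor thus fell in KO and rose in WT skin, in each case without overlap of libraries. Ivl read 9.75, 9.24 and 8.38 FPKM in KO MC903 skin, against 36.2, 53.9 and 38.4 FPKM in KO untreated skin (-2.15 ± 0.24, limma adjusted p = 4.2e-05). In WT skin Ivl read 21.7, 25.4 and 17.1 FPKM after MC903, against 24.3, 18.1 and 11.7 FPKM untreated, overlapping and without a call (0.28 ± 0.24, limma adjusted p = 0.33). Pglyrp4 read 13.6, 15.5 and 10.8 FPKM in KO MC903 skin, against 7.3, 7.3 and 6.32 FPKM in KO untreated skin. In WT MC903 skin Pglyrp4 read 24.8, 23.3 and 22.3 FPKM, against 4.84, 3.69 and 1.72 FPKM in WT untreated skin. The related Pglyrp3 read 8.12, 10.5 and 4.83 FPKM in KO MC903 skin, against 4.16, 4.59 and 3.98 FPKM in KO untreated skin. In WT MC903 skin Pglyrp3 read 18.1, 16.3 and 9.09 FPKM, against 1.5, 0.985 and 0.378 FPKM in WT untreated skin. These peptidoglycan recognition genes, whose proteins kill bacteria, rose in WT skin (2.7 ± 0.25 for Pglyrp4 and 3.39 ± 0.34 for Pglyrp3, limma adjusted p = 4.3e-06 and 6.8e-06), and in KO skin only Pglyrp4 was called (0.88 ± 0.25, limma adjusted p = 0.015; Pglyrp3 0.75 ± 0.34, limma adjusted p = 0.089). Kprp read 190, 192 and 114 FPKM in KO MC903 skin, against 78, 90.6 and 69.6 FPKM in KO untreated skin. In WT MC903 skin Kprp read 134, 148 and 126 FPKM, against 65.7, 59.2 and 23.3 FPKM in WT untreated skin. Kprp, a proline-rich keratinocyte protein, rose in both, with the KO call held in 17 of 23 alternative settings (1.02 ± 0.33 and 1.58 ± 0.33, limma adjusted p = 0.026 and 0.0016), while Smcp, known from sperm mitochondria, stayed at or below 1.11 FPKM throughout.

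**Figure D4:**
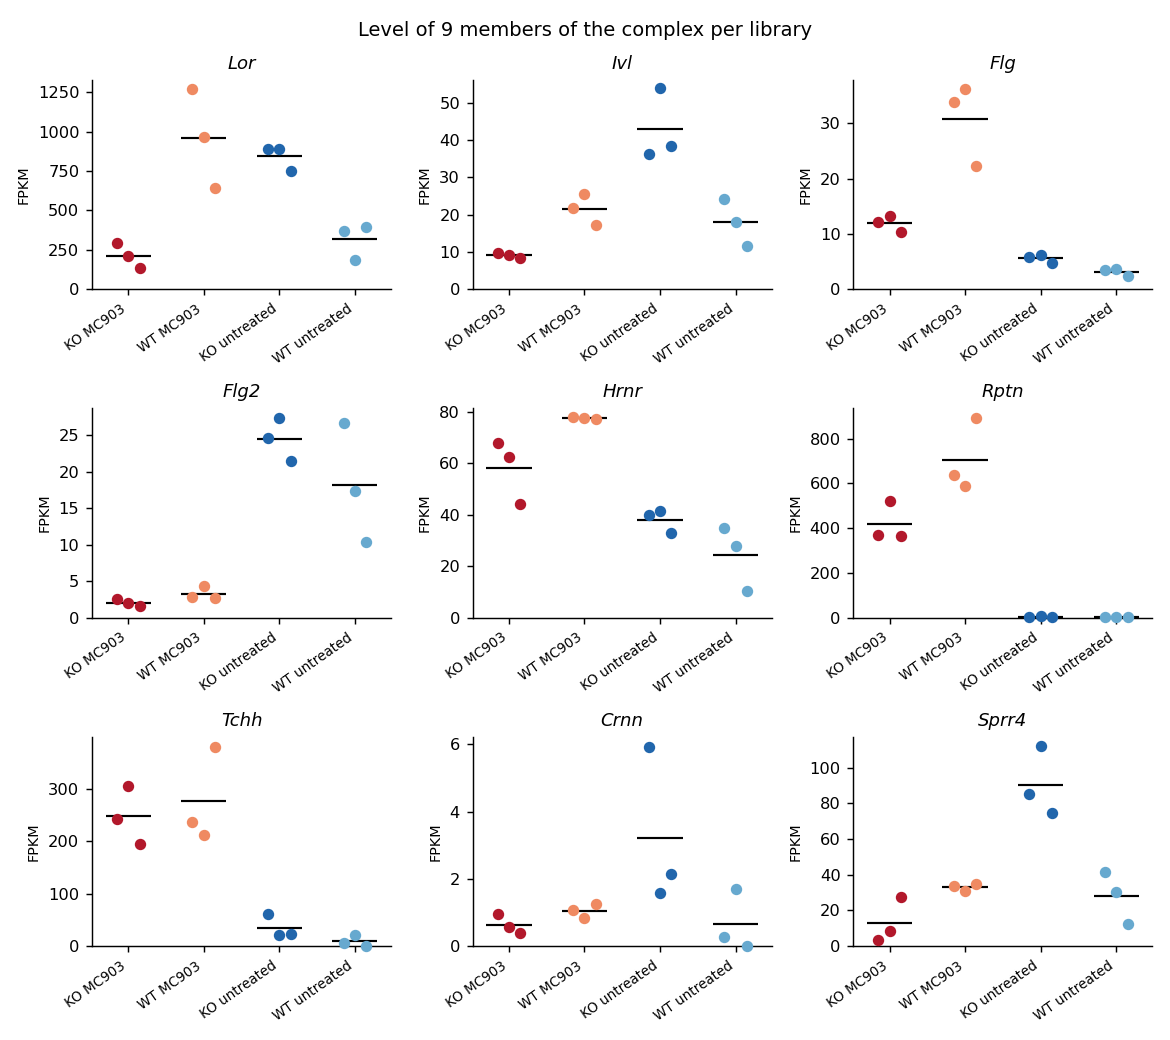
FPKM (linear axes from 0) of 9 members in each library; points are libraries and lines are group means. Lor, Ivl and Sprr4 are lowest on average in KO MC903 skin, Rptn and Tchh are high in both MC903 groups, and Flg2 reaches at most 4.27 FPKM in the MC903 libraries.

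Setting KO MC903 against WT MC903 skin asks how the treated genotypes differ. No member was higher and 23 of 50 were lower in KO skin, where 25.9% of all genes tested were higher and 26.1% lower, and the median was -0.73 against -0.03 for all genes. Without the 8 members that passed the filter only through MC903 libraries, 17 of 42 were lower. Called lower were 7 of 14 Lce1, 1 of 6 Lce3, 1 of 2 Sprr1, 7 of 12 Sprr2, 2 of 7 S100-fused and 4 of 7 lone genes, and Sprr4. The near-identical Sprr2a copies were among the lowest: together they read 216, 228 and 157 FPKM in KO MC903 skin, against 1145, 774 and 968 FPKM in WT MC903 skin, a ratio of 0.208. The other Sprr2 genes together read 2053, 1744 and 1085 FPKM, against 2851, 2856 and 2605 FPKM, a ratio of 0.587. Sprr2a2 alone read 53, 56.4 and 21.7 FPKM in KO MC903 skin, against 446, 224 and 312 FPKM in WT MC903 skin, without overlap. Each copy was called (Sprr2a2 -2.95 ± 0.33, Sprr2a1 -2.1 ± 0.22, Sprr2a3 -1.93 ± 0.27; limma adjusted p of at most 0.00018), whereas Sprr2d was not (-0.69 ± 0.34, limma adjusted p = 0.11). Lor (-2.19 ± 0.35, limma adjusted p = 0.00039), Flg (-1.31 ± 0.19, limma adjusted p = 0.00022) and Ivl (-1.17 ± 0.24, limma adjusted p = 0.0019) were lower without overlap of libraries, as the values above show. Rptn was lower by less (-0.75 ± 0.21, limma adjusted p = 0.012). Not called were Tchh (-0.13 ± 0.81, limma adjusted p = 0.91), Hrnr (-0.43 ± 0.34, limma adjusted p = 0.31), Lce3d (-0.28 ± 0.48, limma adjusted p = 0.66) and Lce1j, the highest of all at 0.3 ± 0.22 (limma adjusted p = 0.28). Lce1j read 175, 176 and 91.1 FPKM in KO MC903 skin, against 124, 109 and 110 FPKM in WT MC903 skin.

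Markers of other cells differed in the same comparison. Of 8 basal keratinocyte markers 7 were lower in KO MC903 skin (median -1.16), with a summed FPKM of 3500 to 4880, against 12400 to 17300 in WT MC903 skin. All 5 fibroblast markers and 5 of 7 immune cell markers were higher, at sums of 1210 to 1520 and 2120 to 2770, against 390 to 490 and 1000 to 1230 FPKM. S100a8 and S100a9, which stressed keratinocytes also make, gave 1990 to 2670 of the immune sum in KO MC903 and 982 to 1200 in WT MC903 skin. All 5 skeletal muscle markers were lower (median -1.72), at sums of 394 to 627, against 1120 to 1630 FPKM. The part of these differences in the lower complex was not tested. The count of 23 was 15 without KO MC903 replicate 3 (1 higher, 14 lower) and 10 on the TPM scale (1 higher, 9 lower), which moves the median of all genes by 0.29. The member called higher in both settings was Lce1j.

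Without treatment the order of the genotypes was turned round: 33 of 50 members were higher in KO than in WT skin and none lower, where 7.15% of all genes tested were higher and 4.55% lower, with a median of 1.3 against 0.01 for all genes. Higher were 11 of 14 Lce1, 5 of 6 Lce3, 1 of 2 Sprr1, 6 of 12 Sprr2, 4 of 7 S100-fused and 5 of 7 lone genes, and Lce6a. Without the 8 members that passed the filter only through MC903 libraries, 31 of 42 were higher. In this fit Sprr2d differed most (3.33 ± 0.34, limma adjusted p = 0.00079), from a level that stayed far under that of Lce1 genes. It read 16.4, 11.5 and 9.93 FPKM in KO untreated, against 0.959, 1.46 and 0.23 FPKM in WT untreated skin. Over the alternative settings Tchhl1 reached 4.75 and Sprr2e 4.35, against 4.06 for Sprr2d. Members abundant in resting skin were higher too. Crct1 read 570, 593 and 575 FPKM in KO untreated skin, against 258, 239 and 181 FPKM in WT untreated skin (1.37 ± 0.21, limma adjusted p = 0.0037). Lce1a1 (1.11 ± 0.19, limma adjusted p = 0.0056) and Lor (1.48 ± 0.35, limma adjusted p = 0.022, a call held in 18 of 23 alternative settings) were also higher. The genes that MC903 lowered in both genotypes were not called here (Lce1m 0.56 ± 0.25 and Flg2 0.51 ± 0.29, limma adjusted p = 0.16 and 0.27), nor was Tchh (2.46 ± 0.81, limma adjusted p = 0.073). None of the 8 basal markers passed in this comparison (median -0.02), and 3 of 6 suprabasal markers were higher. Of the fibroblast markers 3 of 5 were higher (median 0.89), at sums of 3190 to 3690 in KO untreated, against 927 to 1620 FPKM in WT untreated skin, and all 4 adipocyte markers were lower (median -1), at 149 to 164, against 243 to 376 FPKM. Their part in the higher complex was not tested. The count of 33 fell to 19 without KO untreated replicate 1, to 20 without KO untreated replicate 2 and to 13 when only these 6 libraries were fitted, and all of these calls were higher in KO skin.

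The difference of the MC903 response, KO minus WT, combines both comparisons of the genotypes and shares all their libraries, so it is no separate evidence for them. It was negative for all 50 members tested, and 42 passed, all lower, where 20% of all genes tested were higher and 19.7% lower. The median was -2.05 against -0.01 for all genes. It was called for 13 of 14 Lce1, 6 of 6 Lce3, 1 of 2 Sprr1, 11 of 12 Sprr2, 4 of 7 S100-fused and 6 of 7 lone genes, and for Sprr4. Of these calls Lce1j held in 11, and Lce3b and Crnn in 12 each, of 22 alternative settings. Without the 8 members that passed the filter only through MC903 libraries, 35 of 42 were called lower, among them 7 of 7 Sprr2 and 4 of 4 Lce3 genes. In this fit the largest differences were those of Sprr2d (-4.02 ± 0.48, limma adjusted p = 0.00017), Lor (-3.67 ± 0.49, limma adjusted p = 0.00032) and Sprr4 (-3.55 ± 0.83, limma adjusted p = 0.0064). The order depends on the setting: over the alternatives Sprr2a2 reached -6.03, Sprr2e -5.33 and Sprr2i -4.83, against -4.75 for Sprr2d. The 8 not called ran from -0.56 ± 0.47 (Kprp, limma adjusted p = 0.37) to -2.6 ± 1.15 (Tchh, limma adjusted p = 0.093). Without both KO MC903 replicate 3 and WT untreated replicate 3, a setting chosen after the data were seen, 40 were called, all lower, and Kprp stood at 0.16.

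**Figure D5:**
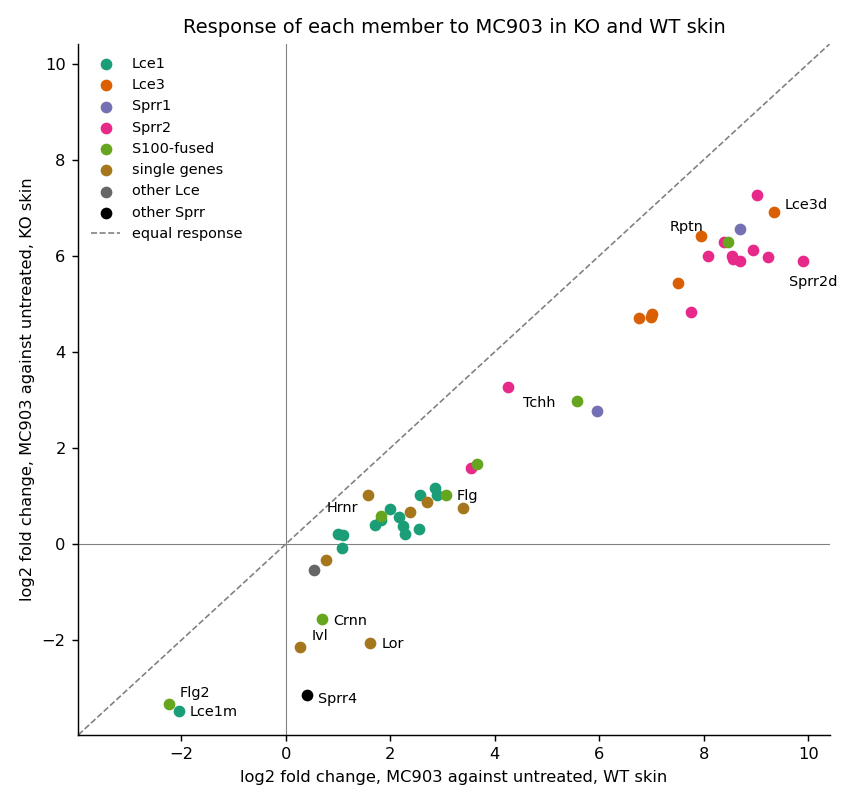
Log2 fold change of each of the 50 members tested after MC903, in KO skin (vertical axis) against WT skin (horizontal axis), coloured by family; the dashed line marks an equal response. All points lie below the line. Lor, Ivl, Sprr4 and Crnn, and by less Lce6a, Smcp and Lce1c, lie below 0 in KO skin and above 0 in WT skin. Lce1m and Flg2 lie below 0 in both.

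RefSeq promoter windows of 300 bases (250 before and 50 after the start, GRCm38.p6) were available for 44 of the 52 members and 32851 genes in all. The letters TGANTCA, the binding motif of AP-1 factors such as Junb, occurred on either strand in 16 of the 44 windows (36.4%), against 7.81% of all windows. They were in 7 of 10 Sprr2 windows, 193 to 198 bases before the start in each, and in none of the 3 Sprr2a windows. The Sprr2a windows are no like comparison: those of Sprr2a1 and Sprr2a2 end in letters that lie ahead of TATAAA in the Sprr2b window. The Sprr2a2 window (from 92250397) also lies far from the start of its gene model (92215920). The motif was in both Sprr1 windows and in 5 of 7 S100-fused windows, but in none of 13 Lce1 and 6 Lce3 windows. TATAAA, the letters of the TATA box, stood on either strand and at any position in 20 of 44 (45.5%), against 13.6% of all windows. In Lce6a and Lce3e the match was on the opposite strand only. AACNNGTT (a Grhl-type motif) and TTGCNNAA (a C/EBP-type motif) stood in 2.27% and 11.4%, against 4.2% and 10.8%. Windows of 3 genes that moved differently are printed on the gene's strand, with TGANTCA and TATAAA matches in capitals: Sprr2d (chr3:92338890-92339189, plus strand), Lce3d (chr3:92957140-92957439, plus strand) and Flg2 (chr3:93197023-93197322, plus strand).
Sprr2d: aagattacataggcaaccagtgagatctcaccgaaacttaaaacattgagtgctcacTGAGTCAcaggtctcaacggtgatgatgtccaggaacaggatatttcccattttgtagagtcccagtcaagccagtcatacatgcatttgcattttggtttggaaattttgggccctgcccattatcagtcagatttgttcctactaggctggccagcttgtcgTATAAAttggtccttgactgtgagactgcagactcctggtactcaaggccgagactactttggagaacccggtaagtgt
Lce3d: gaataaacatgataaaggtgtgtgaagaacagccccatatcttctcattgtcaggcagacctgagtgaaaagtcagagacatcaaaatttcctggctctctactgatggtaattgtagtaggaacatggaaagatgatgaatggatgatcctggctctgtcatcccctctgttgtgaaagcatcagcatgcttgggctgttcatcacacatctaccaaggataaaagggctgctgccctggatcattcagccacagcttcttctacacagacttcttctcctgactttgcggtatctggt
Flg2: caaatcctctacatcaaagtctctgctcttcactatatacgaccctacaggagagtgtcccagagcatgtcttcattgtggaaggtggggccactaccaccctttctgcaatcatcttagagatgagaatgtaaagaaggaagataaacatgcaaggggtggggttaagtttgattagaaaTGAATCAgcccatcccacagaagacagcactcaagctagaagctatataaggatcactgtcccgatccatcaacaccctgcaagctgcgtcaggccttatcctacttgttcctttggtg
Sprr2d, which rose, held both motifs; Lce3d, which rose as strongly, held neither; and Flg2, which fell, held TGANTCA. A match is a description of the letters in this window only.

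Genes of cornification outside the complex were counted in the same way. Of 24 partners of the envelope, such as transglutaminases and desmosomal or protease genes, 8 rose and 5 fell with MC903 in KO skin (median 0.15) and 22 rose and none fell in WT skin (2.13). The KO counts are near the 25% and 23% of all genes that rose and fell, and in WT skin 32.6% of all genes rose. Between the genotypes 18 were lower in KO MC903 skin (-0.92), 15 were higher in KO untreated skin (1.07), and the difference of response was lower for 22 (-1.93). Asprv1, the protease that trims filaggrin, read 277, 365 and 274 FPKM in KO MC903, 970, 723 and 920 in WT MC903, 407, 468 and 396 in KO untreated and 166, 138 and 93.6 in WT untreated skin. Its libraries overlapped in no comparison of the genotypes, and it was lower in KO MC903 skin (-1.51 ± 0.2, limma adjusted p = 0.00013) and higher in KO untreated skin (1.71 ± 0.2, limma adjusted p = 0.0013). Csta1, a cystatin of the envelope, rose in both genotypes (3.37 ± 0.17 in KO and 4.18 ± 0.17 in WT skin, limma adjusted p = 1.4e-07 and 1.3e-08).

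Of 21 regulators of epidermal differentiation 7 rose and 3 fell in KO skin and 16 rose and 1 fell in WT skin after MC903, beside the same shares of all genes. Between the genotypes 2 were higher and 13 lower in KO MC903 skin, 9 were higher in KO than in WT untreated skin, and the difference of response was higher for 2 and lower for 14. Junb, an AP-1 subunit, read 113, 129 and 97.7 FPKM in KO MC903, 199, 210 and 197 in WT MC903, 46, 67.5 and 42.4 in KO untreated and 21.2, 13.7 and 25.4 in WT untreated skin, and it had the largest difference of response in this list by adjusted p (-2.2 ± 0.31, limma adjusted p = 0.00039). Klf4, a factor needed for the skin barrier, was higher in KO untreated skin (0.7 ± 0.17, limma adjusted p = 0.025). The 4 stress keratins rose in both genotypes (median 6.22 in KO and 9.34 in WT skin), all 4 were lower in KO MC903 than in WT MC903 skin, and 3 were higher in KO than in WT untreated skin. Of 6 suprabasal markers 2 rose and 3 fell in KO skin and 3 rose in WT skin after MC903, and the difference of response was lower for all 6 (median -2.59). They moved apart in KO skin: Krt1 rose (2.1 ± 0.34, limma adjusted p = 0.00053), Krt77 fell (-4.51 ± 0.41, limma adjusted p = 1e-05) and Krt2 fell (-1.34 ± 0.34, limma adjusted p = 0.0078). Krt1, the early suprabasal keratin, read 431, 485 and 316 FPKM in KO MC903 skin, against 109, 93.3 and 82.4 FPKM in KO untreated skin. The more abundant Krt10 read 1540, 1130 and 758 FPKM in KO MC903 skin, against 2380, 2330 and 2110 FPKM in KO untreated skin, without a call (-1.05 ± 0.47, limma adjusted p = 0.087). Of 47 other genes in the table that lie within the same interval, 13 passed the filter; 5 rose and 1 fell in KO skin, 10 rose and 1 fell in WT skin, and the difference of response was lower for 3 (median -0.94).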

How the data were processed

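RNA levels of 12 mouse skin libraries were taken from the authors' deposited table of FPKM values. Per the submitters' processing notes, mm10 was the genome and featureCounts the counter. No source used here gives the aligner, versions, read length or the software behind the FPKM values. FPKM times the gene length in the deposited table, after 1 factor per library, gave whole reads for 100% of values within a tolerance of 0.01. These factors followed median-of-ratios size factors rather than total reads, so the deposited FPKM values already carry a scaling between libraries. Of the series' 15 samples, 3 from dorsal root ganglia were left out.

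Genes with an FPKM of at least 0.5 in at least 3 of the 12 libraries (17646) were fitted with limma 3.58.1 in R 4.3.3 to log2(FPKM + 0.5) over the 4 groups, with eBayes and a mean trend, with Benjamini-Hochberg adjustment over all of them (threshold 0.05). The scripts were tested on simulated data. The members, the gene lists and the rule for named genes were chosen with earlier results of these data known. By that rule, values per library are given for single-copy members with a mean of at least 0.5 FPKM, the 2 most abundant members of each Lce and Sprr family, and the highest and lowest fold change of each comparison. Of each other list, the 2 called genes of lowest adjusted p per comparison may be named. Klf4, Krt2, Krt10 and Krt71 fall outside it and were chosen after their values were seen. Sequences came from mm10 and from RefSeq promoter windows. Some sequences are not reported here. Alternatives were another pseudocount, filter, scaling or variance model, voom on recovered reads, a replicate block, a fit of only the groups compared, and leaving out libraries. Over all genes tested, same-numbered libraries varied together little (correlations -0.13 to 0.17), and the numbers were not used as pairs. For most members, however, replicate 3 was the lowest library in KO MC903, KO untreated and WT untreated skin. A shared replicate effect was allowed for only in the replicate block.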

Additional observations from a re-analysis of the deposited data

Results flagged for a closer look

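For 42 members the MC903 response, KO minus WT, differed between the genotypes by limma (adjusted p below 0.05 over all genes tested), all with the lower value in KO skin. The difference is on the log2 scale of FPKM + 0.5. Among Lce1 genes it was -1.88 for Lce1a1, -1.33 for Lce1b, -2.07 for Lce1a2, -1.18 for Lce1c, -1.31 for Lce1d, -1.88 for Lce1e, -2.23 for Lce1f, -1.55 for Lce1g, -1.25 for Lce1h, -1.6 for Lce1i, -0.92 for Lce1j, -1.69 for Lce1k and -1.43 for Lce1m. Among Lce3 genes, which share sequence, it was -2.08 for Lce3a, -1.53 for Lce3b, -2.26 for Lce3c, -2.42 for Lce3d, -2.24 for Lce3e and -2.06 for Lce3f. Among Sprr2 genes it was -2.84 for Sprr2a1, -3.27 for Sprr2a2, -2.62 for Sprr2a3, -1.75 for Sprr2b, -4.02 for Sprr2d, -2.93 for Sprr2e, -2.09 for Sprr2f, -2.09 for Sprr2g, -2.81 for Sprr2h, -2.54 for Sprr2i and -1.97 for Sprr2j-ps. Among S100-fused genes it was -2.26 for Crnn, -2.04 for Flg, -2.17 for Rptn and -1.99 for Tchhl1. Among the genes standing alone it was -1.83 for Pglyrp4, -2.64 for Pglyrp3, -3.67 for Lor, -2.43 for Ivl, -1.1 for Smcp and -1.71 for Crct1. It was -3.19 for Sprr1a and -3.55 for Sprr4. The Sprr2a1 and Sprr2a2 values cannot be separated from each other, since nearly all of their exon sequence is shared. The calls of Lce1j, Lce3b and Crnn held in 11, 12 and 12 of 22 alternative settings.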

How the results depend on the processing

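Of the 5 counts of called members, those of MC903 against untreated in KO (37) and WT skin (46) and of the difference of response (42) stayed within 1.5 times under every alternative run. For KO against WT in MC903 skin the count was 23, and it was 10 on the TPM scale, where the median of all genes shifts by 0.29 and 72.9% of all calls are higher against 49.8%; leaving out 1 library gave 15 to 29. For KO against WT in untreated skin it was 33, with 13 when only the groups compared were fitted and 19 to 34 when 1 library was left out. Total-read scaling shifted the median of all genes by at most 0.19 in size (-0.19, MC903 in WT skin), and TPM by up to -0.47 there. With the replicate block the counts were 39, 46, 30, 35 and 46, and it moved none by over 1.5 times.

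The log2 fold change took both signs over the settings for 12 members, in 1 comparison each, and in none of these was the member called. Sprr4 with MC903 in WT skin stood at -0.06 on the TPM scale and at -0.09 to 0.77 with 1 library left out, and at -0.09 without KO MC903 replicate 3 and WT untreated replicate 3, a setting chosen after seeing the data. Ivl with MC903 in WT skin stood at -0.19 and Lce1j in KO skin at -0.02 on the TPM scale. For KO against WT in MC903 skin, Lce3d stood at 0.02 and Tchh at 0.17 on the TPM scale, and Tchh at -0.3 to 0.12 with 1 library left out, with 0.03 in the setting chosen later. The difference of response of Kprp stood at 0.16 in that setting and at -0.83 at its lowest with 1 library left out. The others were Lce1c with MC903 in KO skin (-0.29 to 0.09), Lce1g (-0.39 to 0.04), Lce1h (-0.15 to 0.28), Lce1l (-0.26 to 0.19) and Lce3b (-0.34 to 0.28) for KO against WT in MC903 skin, and Smcp untreated (-0.14 to 0.43). Of single calls the least stable were Crnn (held in 5 of 23 settings), Sprr2b (10) and Lce1d (13) in untreated skin, and Lce1e (10) and Sprr2e (12) in MC903 skin. The cause was not tested. Depth limits the Sprr2 genes in untreated skin, where Sprr2k had no read, and Sprr3 and Sprr2c-ps throughout.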
